A study of Mus musculus with 21 samples.

Results

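The 10 genes described here encode the ligands and receptors of the VEGF and angiopoietin systems: *Vegfa*, *Vegfb*, *Vegfc*, *Pgf*, *Flt1*, *Kdr*, *Angpt1*, *Angpt2*, *Tek* and *Tie1*. They were chosen by name rather than by their measured values, although earlier results of these data were known. They are 10 of the 27179 genes listed in each count table. All 10 had enough reads to be tested, among 16377 genes tested. The libraries were made from podocyte fractions of individual wildtype male C57BL/6J mice, isolated by magnetic sorting of a kidney cortex digest for nephrin, a podocyte surface protein. The groups were 6 untreated young mice (4 months), 7 middle-aged mice (19.5 months) given saline, and 8 middle-aged mice (19.5 months) given MCC950, an inhibitor of the NLRP3 inflammasome, at 10 mg/kg for 6 weeks from 18 months of age. The young mice received no injections, so age and saline injection cannot be told apart in the comparison of these groups. Nothing in the sources used here gives a batch or date for the libraries.

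Glomerular capillaries depend on a paracrine exchange between neighbouring cells. Podocytes secrete VEGF-A, which crosses the basement membrane and acts on the fenestrated endothelium through VEGFR2, the product of *Kdr*, while VEGFR1, the product of *Flt1*, binds VEGF-A, VEGF-B and placental growth factor and in its soluble form holds them away from VEGFR2. Angiopoietin-1 activates the endothelial receptor TIE2, the product of *Tek*, and stabilizes the vessel wall, whereas angiopoietin-2, released by endothelial cells themselves, often opposes it. TIE1 is a related receptor without a high-affinity angiopoietin of its own that modifies TIE2 signaling. The 4 receptors are therefore known as endothelial transcripts, *Vegfa* as a podocyte transcript, and a fraction that holds both kinds of cell reads both sides of the exchange.

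The promoters of 3 receptors, those with the largest differences between saline and young libraries, and of the ligands *Vegfa* and *Vegfb* are shown. These members moved together or apart in the results that follow. RefSeq windows on GRCm38.p6 were held for 8 of the 10 genes, and those of *Angpt1* and *Angpt2* were not used here. Each sequence reads 5′ to 3′ on the strand of the gene and ends at the listed start of transcription, except that of *Kdr*, which leaves out the last 3 bases because GENCODE places an exon there. RefSeq transcript models of *Flt1*, *Kdr* and *Tek* also begin farther upstream than the start listed for these windows. For 3 receptors the capitals mark the motif GGAA or its complement TTCC, the core bound by ETS factors, and for *Vegfa* and *Vegfb* they mark the GC box GGGCGG or its complement CCGCCC. The windows were those of *Flt1* (chr5:147726012-147726261, minus strand), *Kdr* (chr5:75978459-75978705, minus strand), *Tek* (chr4:94739039-94739288, plus strand), *Vegfa* (chr17:46032378-46032627, minus strand) and *Vegfb* (chr19:6987652-6987901, minus strand).
Flt1: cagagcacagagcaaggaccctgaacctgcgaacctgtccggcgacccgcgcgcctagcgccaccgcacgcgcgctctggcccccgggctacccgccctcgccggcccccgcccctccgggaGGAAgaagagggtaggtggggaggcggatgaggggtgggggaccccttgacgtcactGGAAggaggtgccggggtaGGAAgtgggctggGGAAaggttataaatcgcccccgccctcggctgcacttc
Kdr: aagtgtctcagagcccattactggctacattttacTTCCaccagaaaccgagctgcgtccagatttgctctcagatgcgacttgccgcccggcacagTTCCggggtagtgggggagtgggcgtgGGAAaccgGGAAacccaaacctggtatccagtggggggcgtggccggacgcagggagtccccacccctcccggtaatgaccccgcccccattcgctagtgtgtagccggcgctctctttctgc
Tek: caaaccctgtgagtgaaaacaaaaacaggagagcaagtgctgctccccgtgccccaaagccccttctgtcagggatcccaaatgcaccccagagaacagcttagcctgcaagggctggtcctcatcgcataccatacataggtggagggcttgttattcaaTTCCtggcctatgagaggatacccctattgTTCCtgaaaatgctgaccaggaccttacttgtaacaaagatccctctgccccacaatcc
Vegfa: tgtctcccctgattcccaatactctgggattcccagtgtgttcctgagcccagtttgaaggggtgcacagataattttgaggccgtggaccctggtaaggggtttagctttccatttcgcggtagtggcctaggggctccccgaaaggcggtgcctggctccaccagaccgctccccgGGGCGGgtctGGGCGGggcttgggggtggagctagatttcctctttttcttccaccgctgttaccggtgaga
Vegfb: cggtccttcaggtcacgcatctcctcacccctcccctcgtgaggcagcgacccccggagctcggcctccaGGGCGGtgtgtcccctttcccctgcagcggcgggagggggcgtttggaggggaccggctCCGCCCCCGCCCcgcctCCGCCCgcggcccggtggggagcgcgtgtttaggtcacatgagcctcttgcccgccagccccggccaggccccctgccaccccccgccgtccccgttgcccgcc

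Counted on both strands over 250 bases, GGAA was found 4 times each in the windows of *Flt1* and *Kdr*, 2 times in that of *Tek* and 7 times in that of *Tie1*. It was not particular to receptors. The window shown for *Vegfa* held 6 matches, not marked there, and those of *Vegfb* and *Vegfc* held 1 each. Of the *Tie1* window, which is not printed, 212 bases lie in a GENCODE exon. GGAA was found in 93.4% of all 32851 promoter windows of that length, with a median of 3 matches, so most genes hold it. The GC box was found 4 times in the window of *Vegfb*, 3 times in that of *Flt1* and 2 times each in those of *Kdr*, *Vegfa* and *Vegfc*. One window of *Pgf*, which lies wholly in GENCODE exons, also held 2, and those of *Tek* and *Tie1* held none. Of all windows, 32.7% had at least 1 match. The core of the hypoxia response element, ACGTG or GCGTG, was found 2 times each in the windows of *Kdr* and *Vegfb* and 1 time in that of *Flt1*, but not in the window shown for *Vegfa*. A window before a second listed start of *Vegfa* (chr17:46025164-46025413, minus strand), of which 218 bases lie in a GENCODE exon, held 2. At least 1 match was found in 38.6% of all windows. Guanine and cytosine made up 76.4% of the window of *Vegfb*, 70.4% of that of *Flt1* and 51.2% of that of *Tek*, around a median of 52.4% over all windows. These matches describe the letters of the windows only.

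Total counts were between 27375870 and 36827823 in the young, between 45772937 and 84876399 in the saline, and between 35440472 and 58247271 in the MCC950 libraries. Mitochondrial genes took 49.9% to 80.4% of the counts, with means of 69.3% in the young, 69.6% in the saline and 56.4% in the MCC950 libraries. Young replicate 5 had the highest mitochondrial share and the fewest counts outside it, 5804891. The lowest count of a member in any library was 8, for *Pgf*, and the highest was 12580, for *Vegfa*. Levels are given as CPM, counts scaled to the library's size after TMM normalization, and differences as log2 fold changes with their standard error (SE) and the Benjamini-Hochberg adjusted p over all 16377 genes of edgeR's quasi-likelihood test, in which all 3 groups were fitted together.

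The fractions held transcripts of several cell types. None of the 15 podocyte markers was at 0 in any library, and their summed level was 851 to 1789 CPM in the young, 355 to 631 CPM in the saline and 461 to 724 CPM in the MCC950 libraries. The 14 endothelial markers, none at 0 in any library, summed to 492 to 892 CPM, 301 to 426 CPM and 273 to 453 CPM in the same order. The 14 proximal tubule markers, none at 0 either, summed to 2338 to 8913 CPM, 2467 to 5739 CPM and 3483 to 10389 CPM, which is more than the podocyte markers in every group. The labelled cell type is therefore one component of these libraries, and they are called podocyte fractions here. In bulk libraries, fewer cells of a type and less RNA per cell cannot be told apart.

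Per kilobase of exon, *Vegfa* was the highest of the 10 genes in each group, and it stood above the next gene in every library. Its median was 44.5 CPM per kb in the young, 24.6 in the saline and 34.9 in the MCC950 libraries. *Kdr* came second in the young libraries (median 15.4 CPM per kb), above *Vegfb* (11.9) in 4 of 6, and behind *Vegfb* in both middle-aged groups, where *Vegfb* (11.7 in the saline and 15.3 in the MCC950 libraries) stood above *Kdr* (5.84 and 5.52) in 7 of 7 and 8 of 8 libraries. *Tie1*, *Tek*, *Angpt2* and *Flt1* followed in that order of medians in all 3 groups. Neighbours in that order were not always separable: *Angpt2* stood above *Flt1* in 4 of 6 young and 4 of 8 MCC950 libraries, and *Vegfc* above *Angpt1* in 3 of 6 young libraries. *Pgf* was the lowest gene in every group, with medians of 0.214, 0.192 and 0.134 CPM per kb. Reads were aligned without splicing, so reads across exon junctions may have been lost to a different extent in genes with short exons, and the order rests on the exon lengths of one annotation.

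**Figure D1:**
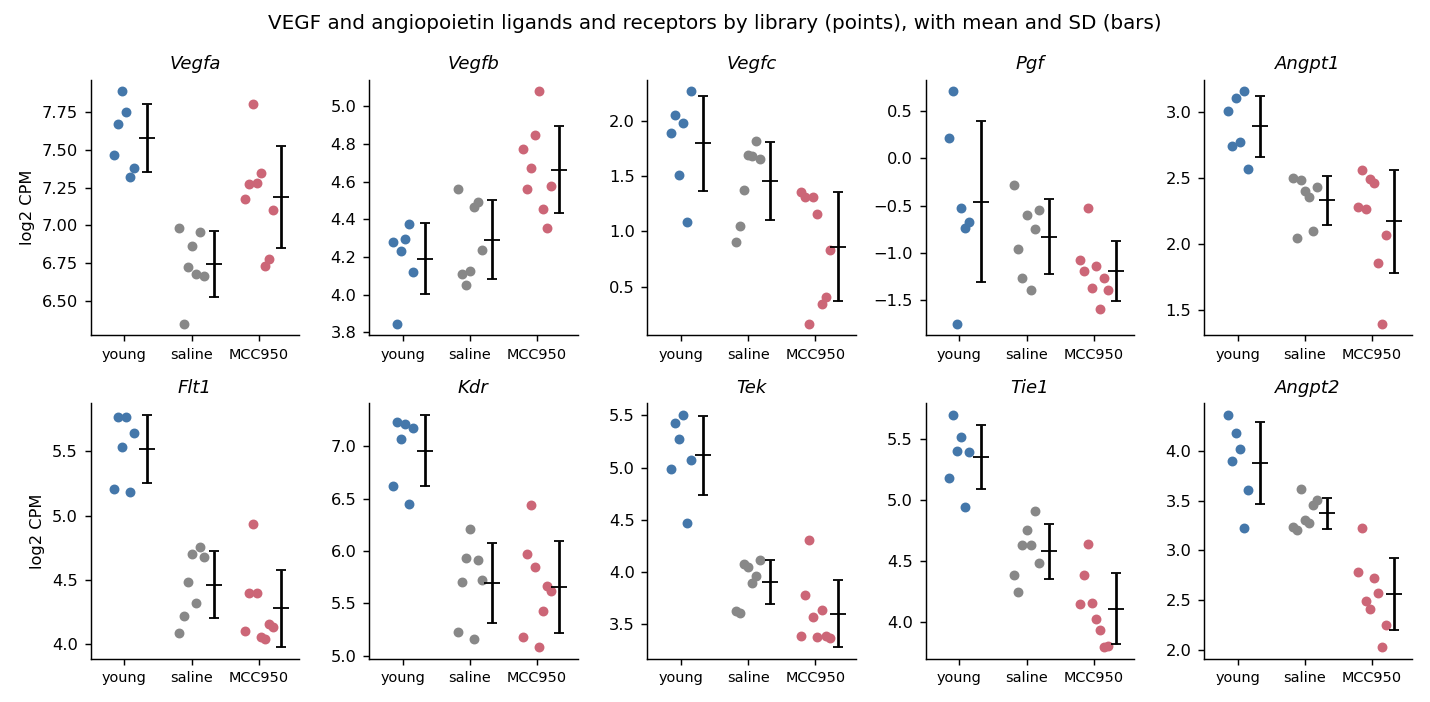
Level of each of the 10 genes in log2 CPM (y axis, a separate scale in each panel) in every library (points) of the 6 young, 7 saline and 8 MCC950 mice, with the group mean and SD (bars). The young libraries lie above all saline libraries for *Vegfa*, *Angpt1*, *Flt1*, *Kdr*, *Tek* and *Tie1*, while for *Vegfb* the MCC950 libraries are the highest group.

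Comparison of saline-treated middle-aged with young mice asked how the 10 genes differ with age. Of them 7 were lower in the saline libraries and none was higher, beside 12.4% of all genes tested lower and 12.2% higher (24.6% in all). The 7 were the podocyte ligand *Vegfa*, both angiopoietins and all 4 receptors. In 6 of the 7, all but *Angpt2*, no saline library reached the lowest young library, a separation seen in 4.86% of all genes in that direction, in 4.51% in the other and in 9.37% in either. The median log2 fold change of the 10 genes was -0.68, beside 0.02 over all genes.

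The VEGF receptors and *Tek* had the largest differences. *Kdr* (chr5:75932827-75979072, minus strand), the receptor that transmits most VEGF-A signaling, was at 87.2 to 150.2 CPM (median 139) in the young and at 35.8 to 73.9 CPM (median 52.8) in the saline libraries. The log2 fold change was -1.25 (SE 0.21, adjusted p = 0.000208). The groups did not overlap, and the coefficient of variation between saline libraries was 25.3%. *Tek* (chr4:94739086-94874976, plus strand), which encodes TIE2, was at 22.0 to 45.3 CPM (median 36.1) in the young and at 12.1 to 17.3 CPM (median 15.5) in the saline libraries. Its log2 fold change was -1.25 (SE 0.16, adjusted p = 3.04e-05), again without overlap, with young replicate 5 the lowest of the young libraries. *Flt1* (chr5:147561604-147726438, minus strand), the decoy and ligand-binding VEGF receptor, was at 36.3 to 54.4 CPM (median 48.1) in the young and at 17.0 to 27.0 CPM (median 22.3) in the saline libraries, a log2 fold change of -1.05 (SE 0.15, adjusted p = 5.67e-05). *Tie1* (chr4:118471191-118489849, minus strand), which modifies TIE2 signaling, was at 30.8 to 52.0 CPM (median 42.2) in the young and at 19.0 to 30.1 CPM (median 24.8) in the saline libraries. It fell the least of the receptors, by 0.78 on the log2 scale (SE 0.14, adjusted p = 0.000439).

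Among the ligands, *Vegfa* (chr17:46016993-46032377, minus strand) was at 159.7 to 237 CPM (median 191) in the young and at 81.4 to 127 CPM (median 105.6) in the saline libraries. The log2 fold change was -0.84 (SE 0.15, adjusted p = 0.00037), and every saline library lay below every young library. *Angpt1* (chr15:42424667-42676977, minus strand), the activating ligand of TIE2, was at 5.89 to 8.87 CPM (median 7.40) in the young and at 4.08 to 5.60 CPM (median 5.24) in the saline libraries, a log2 fold change of -0.57 (SE 0.15, adjusted p = 0.0099). Of its exon bases, 14.2% (737) are shared with *Gm17473* on the opposite strand, and reads there cannot be assigned without strand information. *Angpt2* (chr8:18690263-18741562, minus strand), the context-dependent antagonist, was at 9.32 to 20.6 CPM (median 15.6) in the young and at 9.19 to 12.2 CPM (median 9.88) in the saline libraries. Here the groups overlapped through young replicates 5 and 6, the log2 fold change was -0.56 (SE 0.17, adjusted p = 0.0201), and without young replicate 1 it was -0.45 (adjusted p = 0.0627).

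The other 3 ligands did not pass the test. *Vegfb* (chr19:6982472-6987651, minus strand), a ligand of VEGFR1 alone, was at 14.4 to 20.7 CPM (median 19.1) in the young and at 16.5 to 23.6 CPM (median 18.8) in the saline libraries, with a log2 fold change of 0.11 (SE 0.12, adjusted p = 0.554). *Vegfc* (chr8:54077532-54186454, plus strand), best known for lymphatic growth through VEGFR3, was at 2.08 to 4.77 CPM (median 3.78) and 1.83 to 3.48 CPM (median 3.11), a log2 fold change of -0.36 (SE 0.23, adjusted p = 0.253). *Pgf* (chr12:85166637-85177785, minus strand), which encodes placental growth factor, rested on 8 to 48 reads per library in these 2 groups and was at 0.258 to 1.59 CPM (median 0.621) in the young and at 0.341 to 0.780 CPM (median 0.557) in the saline libraries. Its log2 fold change was -0.57 (SE 0.31, adjusted p = 0.183), and the young libraries alone spanned both the lowest and the highest value of the 3 groups.

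Endothelial and podocyte markers moved with the same comparison. Of the 14 endothelial markers, 12 were lower in the saline libraries and none was higher (median log2 fold change -0.75), among them the junction protein gene *Cdh5* (-1.09, adjusted p = 0.000115), *Pecam1* (-0.72, adjusted p = 0.000391), *Emcn* (-1.02, adjusted p = 0.000595) and the glomerular endothelial gene *Ehd3* (-1.68, adjusted p = 8.2e-05). *Plvap*, a diaphragm protein gene, was at 0.16 (adjusted p = 0.589). The paper stained its product, PV1, in glomeruli as a marker of endothelial injury. Of the 15 podocyte markers, 14 were lower and none was higher (median -1.91), with *Nphs1* at -2.78, *Wt1* at -2.78, *Podxl* at -1.96, *Synpo* at -1.91 and *Cdkn1c* at -2.20. Of the 10 mesangial and smooth muscle markers, 8 were lower. With the mean log2 CPM of the podocyte markers, or that of the endothelial markers, added to the model as a covariate, 0 of the 10 genes passed the test in this comparison, but then 6 and 9 of all 16377 genes did (0.0366% and 0.055%), so the loss of calls was not particular to the members. With the podocyte and then the endothelial score, most log2 fold changes of the members called without a score shrank. They were -0.20 and -0.18 for *Flt1*, 0.13 and -0.18 for *Kdr*, and -0.25 and -0.25 for *Tek*. For *Tie1* they were -0.076 and 0.089, for *Vegfa* -0.27 and -0.26, and for *Angpt2* -0.082 and -0.016. That of *Angpt1* changed little, at -0.57 and -0.51. With the proximal tubule marker score 7 members passed, beside 30.7% of all genes.

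Set against the endothelial markers of the same library, 3 of the 4 receptors were lower in the saline than in the young libraries. The level of a receptor minus the mean of the 14 markers, both in log2 CPM, was compared by exact two-sided permutation tests, adjusted over 18 such tests. For *Kdr* this relative level was 1.95 to 2.25 in the young and 1.23 to 1.95 in the saline libraries, a difference of -0.51 (exact permutation p = 0.00117, adjusted p = 0.00524). For *Tek* it was 0.02 to 0.43 in the young and -0.36 to -0.05 in the saline libraries, a difference of -0.47 (exact permutation p = 0.000583, the smallest that this design can give, adjusted p = 0.00524). For *Flt1* the difference was -0.30 (exact permutation p = 0.00117, adjusted p = 0.00524). In these 3 receptors every saline library lay below every young library, by less than the rounding of the values in the case of *Kdr*. They were lower by more than the mean of the markers, but not than each marker. *Ehd3* (-1.68) fell more than any receptor and *Cdh5* (-1.09) more than *Flt1* (-1.05), while *Pecam1* (-0.72) and *Ecscr* (-0.32) fell less than all 4 receptors. For *Tie1* the relative level was 0.44 to 0.56 in the young and 0.32 to 0.70 in the saline libraries, a difference of -0.02 (exact permutation p = 0.697, adjusted p = 0.784).

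The podocyte ligand showed the reverse. Relative to the mean of the 15 podocyte markers, *Vegfa* was at 2.02 to 2.72 in the young and at 2.76 to 3.79 in the saline libraries, a rise of 0.82 in log2 units with no overlap (exact permutation p = 0.000583, adjusted p = 0.00524). Its transcript was lower with age, but by less than the markers of the podocyte. *Angpt1*, which podocytes and mural cells are known to express, was also lower, at a log2 fold change of -0.57. Relative to the same markers it was higher by 1.10 (exact permutation p = 0.0035, adjusted p = 0.00824). Its relative level was -2.97 to -1.49 in the young and -1.68 to -0.53 in the saline libraries. Whether other cells of the fraction supplied part of either transcript was not tested.

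**Figure D2:**
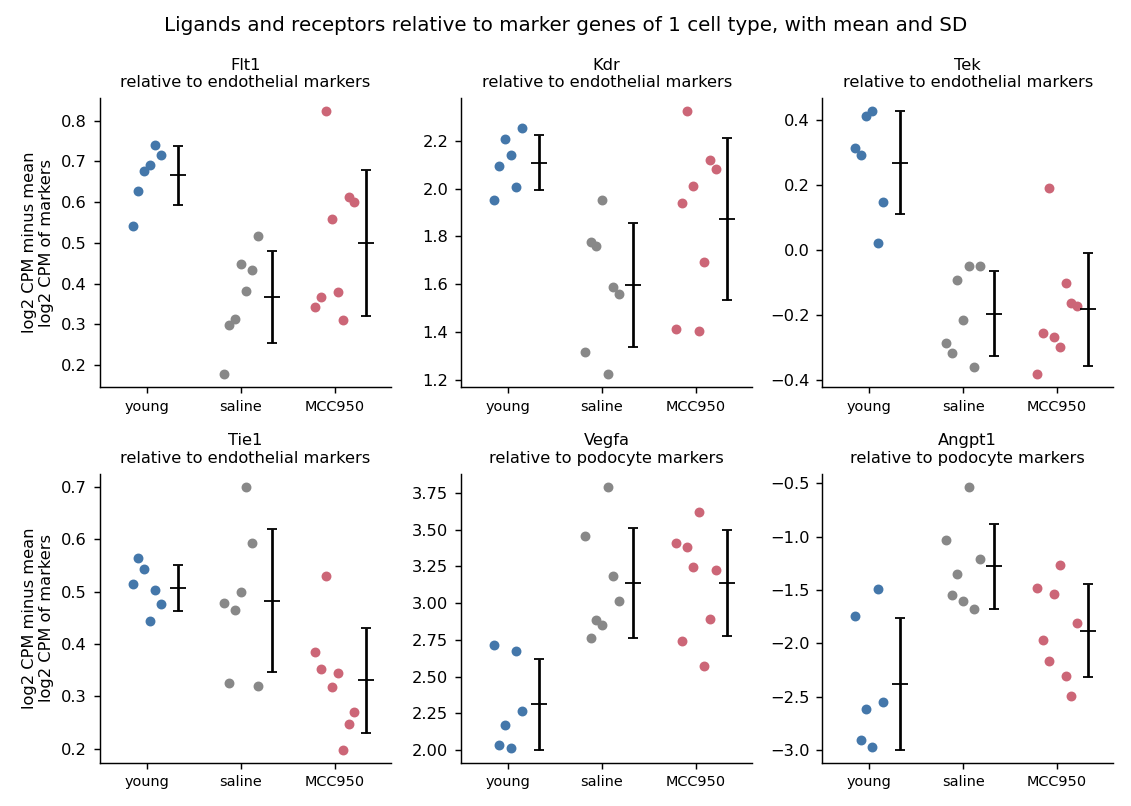
Level of each gene relative to markers of 1 cell type (y axis: log2 CPM of the gene minus the mean log2 CPM of the markers) in every library (points) of the 6 young, 7 saline and 8 MCC950 mice, with the group mean and SD (bars). *Flt1*, *Kdr* and *Tek* lie lower in all saline than in all young libraries, *Tie1* does not, and *Vegfa* lies higher relative to podocyte markers in all saline than in all young libraries.

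MCC950-treated were then compared with saline-treated mice of the same age, which asked what NLRP3 inhibition was accompanied by. Of the 10 genes, 2 were higher and 2 were lower, beside 11.9% and 4.86% of all genes tested (16.8% in all). The ligands *Vegfa* and *Vegfb* were the higher ones, and *Angpt2* and *Tie1* the lower. No member was without overlap between the groups, a property of 1.74% of all genes (1.15% higher and 0.586% lower). The median log2 fold change of the 10 genes was -0.23, beside 0.00281 over all genes.

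*Vegfa* was at 106.2 to 223 CPM (median 149.5) in the MCC950 libraries, and 6 of 8 lay above the highest saline library. The log2 fold change was 0.46 (SE 0.14, adjusted p = 0.0262). The highest library was MCC950 replicate 3, and without it the log2 fold change was 0.36 (adjusted p = 0.0531). The adjusted p was also above 0.05 without saline replicate 2 (0.0584), saline replicate 3 (0.0506) or saline replicate 7 (0.0523). *Vegfb* was at 20.4 to 33.7 CPM (median 24.6) in the MCC950 libraries, with 5 of 8 above the highest saline library, and had a log2 fold change of 0.38 (SE 0.11, adjusted p = 0.0226). Without saline replicate 3 or saline replicate 4 its adjusted p was 0.0517 or 0.0543.

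*Angpt2* had the largest difference of the members. It was at 4.03 to 9.30 CPM (median 5.74) in the MCC950 libraries, and 7 of 8 lay below the lowest saline library. The log2 fold change was -0.79 (SE 0.16, adjusted p = 0.00411). The remaining library, MCC950 replicate 2, was the only one within the saline range. *Tie1* was at 13.8 to 25.0 CPM (median 16.9), with 6 of 8 MCC950 libraries below the lowest saline library, and had a log2 fold change of -0.46 (SE 0.13, adjusted p = 0.0214).

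The remaining 6 genes did not pass the test. *Kdr* was at 33.8 to 86.6 CPM (median 49.8) in the MCC950 libraries, with a log2 fold change of -0.02 (SE 0.19, adjusted p = 0.951). *Flt1* was at 16.5 to 30.6 CPM (median 17.7), with a log2 fold change of -0.18 (SE 0.14, adjusted p = 0.407). *Tek* was at 10.2 to 19.7 CPM (median 11.1), with a log2 fold change of -0.28 (SE 0.15, adjusted p = 0.207). In all 3 receptors the highest value belonged to MCC950 replicate 3, and without it *Tek* passed the test at -0.41 (adjusted p = 0.0423). *Angpt1* was at 2.59 to 5.86 CPM (median 4.78), with a log2 fold change of -0.13 (SE 0.14, adjusted p = 0.578). *Vegfc* was at 1.08 to 2.52 CPM (median 1.96), with a log2 fold change of -0.57 (SE 0.21, adjusted p = 0.0633), and it passed the test in 11 of 33 alternative fits, DESeq2 among them (adjusted p = 0.0261). *Pgf* was at 0.293 to 0.657 CPM (median 0.388) on 16 to 32 reads per MCC950 library, with a log2 fold change of -0.41 (SE 0.29, adjusted p = 0.344).

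Marker genes moved with this comparison as well. Of the 14 endothelial markers 7 were lower and none was higher (median -0.39), *Plvap* at -0.68 (adjusted p = 0.0139) among them, while *Pecam1* (-0.32, adjusted p = 0.0669), *Cdh5* (-0.23, adjusted p = 0.325), *Emcn* (0.03, adjusted p = 0.916) and *Ehd3* (0.08, adjusted p = 0.847) did not pass. Of the 15 podocyte markers 4 were higher and none was lower (median 0.36), with *Nphs1* at 1.18 (adjusted p = 0.0172), *Wt1* at 1.03 (adjusted p = 0.0235) and *Cdkn1c* at 0.87 (adjusted p = 0.0281), and without a call *Synpo* at 0.51 (adjusted p = 0.0577) and *Podxl* at 0.21 (adjusted p = 0.504). Of the 14 proximal tubule markers 7 were higher (median 0.82). With the proximal tubule score as a covariate the number of called members was 1, *Angpt2* (-0.998, adjusted p = 0.00723), beside 5.31% of all genes. With the endothelial score it was also 1, *Vegfa* (0.69, adjusted p = 0.00873), beside 4.4% of all genes, and with the podocyte score, beside 23.3% of all genes, it was 6: *Vegfb*, *Flt1*, *Kdr*, *Angpt2*, *Tek* and *Tie1*.

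Relative to endothelial markers, *Tie1* was lower in the MCC950 than in the saline libraries by 0.15 (exact permutation p = 0.0275, adjusted p = 0.0495), at 0.20 to 0.53. This call was lost in 14 of 24 alternatives. The differences were 0.13 for *Flt1* (adjusted p = 0.15, exact permutation test), 0.28 for *Kdr* (adjusted p = 0.141) and 0.01 for *Tek* (adjusted p = 0.924). Relative to podocyte markers *Vegfa* differed by 0.000499 (exact permutation p = 0.998), with SDs of 0.36 in the MCC950 and 0.37 in the saline libraries. Its mean rise was thus near that of the marker mean, but with this spread a difference in either direction cannot be told from none. *Angpt1* was lower relative to podocyte markers by 0.60 (exact permutation p = 0.0154, adjusted p = 0.0308), a call lost in 5 of 24 alternatives, without saline replicate 1 or 5 or MCC950 replicate 2, 6 or 7 (exact permutation tests, adjusted p up to 0.0719).

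**Figure D3:**
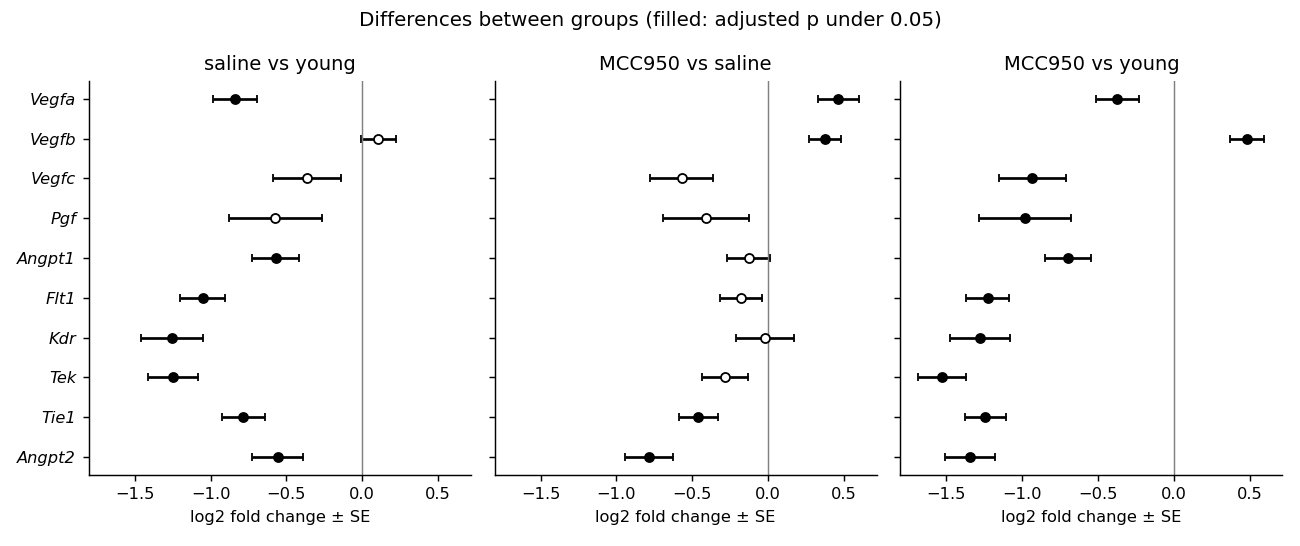
Log2 fold change (x axis) with its SE (bars) of each of the 10 genes in the 3 comparisons of groups, from 1 fit across all genes, where filled points had an adjusted p under 0.05. Filled points number 7 for saline against young, 4 for MCC950 against saline and 10 for MCC950 against young.

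Compared with young mice, the MCC950 libraries differed in all 10 genes, 9 lower and 1 higher, beside 16.5% and 21.8% of all genes tested (38.3% in all). The saline and young libraries of the previous comparisons are shared with this one. In 6 of the 9 lower genes, the 4 receptors, *Angpt1* and *Angpt2*, no MCC950 library reached the lowest young library, as in 4.66% of all genes in that direction, 3.28% in the other and 7.94% in either. The log2 fold changes were -1.53 for *Tek* (SE 0.16, adjusted p = 1.48e-06), -1.34 for *Angpt2* (SE 0.17, adjusted p = 6.92e-06) and -1.28 for *Kdr* (SE 0.20, adjusted p = 6.27e-05). They were -1.24 for *Tie1* (adjusted p = 2.53e-06), -1.23 for *Flt1* (adjusted p = 4.36e-06) and -0.70 for *Angpt1* (adjusted p = 0.00117). *Angpt2* and *Tie1* were the members called lower both with age, at -0.56 and -0.78, and between MCC950 and saline, at -0.79 and -0.46. *Vegfa* remained below the young level at -0.37 (SE 0.14, adjusted p = 0.0416), with 6 of 8 MCC950 libraries under the lowest young library. This call was lost in 10 of 33 alternatives, among them leaving out young replicate 3 or 4 or MCC950 replicate 1, 4, 6, 7 or 8 (adjusted p from 0.0511 to 0.0747). *Vegfb* was the 1 gene above it, at 0.48 (SE 0.11, adjusted p = 0.00259), with 7 of 8 MCC950 libraries over the highest young library. *Vegfc* (-0.93, adjusted p = 0.00242) and *Pgf* (-0.98, adjusted p = 0.0143) were lower, the latter with an adjusted p of 0.0668 without young replicate 2. With the podocyte score as a covariate 1 gene, *Tek*, passed (-0.81, adjusted p = 0.0483), beside 123 of all 16377 genes (0.751%). With the endothelial score 0 members passed, and 0 of all genes, while with the proximal tubule score all 10 members passed, beside 38.6% of all genes. Relative to endothelial markers, *Tek* (-0.45, adjusted p = 0.00599) and *Tie1* (-0.18, adjusted p = 0.00824) were lower by exact permutation tests. *Flt1* (-0.17, adjusted p = 0.091) and *Kdr* (-0.23, adjusted p = 0.164) did not pass these tests, unlike between saline and young. Relative to podocyte markers, *Vegfa* was higher by 0.82 (exact permutation test, adjusted p = 0.00799). *Angpt1* was higher by 0.50 without a call (exact permutation test, adjusted p = 0.141).

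Ratios of 2 members within a library need no scaling by its size and place a ligand beside its antagonist or its receptor. They were compared as log2 ratios of counts with exact two-sided permutation tests, adjusted over 15 tests. A prior count of 2 was added to each count whatever the depth, so ratios with few reads, above all those of *Pgf*, still depend on depth. Gene length differs between the partners, so the ratio itself is not a ratio of molecules, and only differences between groups are read. The ratio of *Angpt2* to *Angpt1*, antagonist to agonist of TIE2, was 0.07 to 1.35 (median 1.12) in the young, 0.74 to 1.36 (median 1.08) in the saline and -0.08 to 0.72 (median 0.38) in the MCC950 libraries. The difference between saline and young was 0.05 (exact permutation p = 0.854), although it was -0.13 without young replicate 5, which lay far below the other young libraries. All 8 MCC950 libraries lay below all 7 saline libraries, by 0.66 on average (exact permutation p = 0.000311, adjusted p = 0.00167), and this call held in all 24 alternatives. Against the young libraries the ratio was lower by 0.60 (exact permutation p = 0.0163, adjusted p = 0.0408), a call lost in 11 of 24 alternatives, which were thinning to equal depth and leaving out young replicate 1, 2, 3, 4 or 6 or MCC950 replicate 1, 3, 4, 5 or 8 (exact permutation tests, adjusted p up to 0.0835).

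The ratio of *Tie1* to *Tek* was 0.01 to 0.48 (median 0.23) in the young, 0.37 to 0.95 (median 0.71) in the saline and 0.30 to 0.77 (median 0.52) in the MCC950 libraries. It was higher in the saline than in the young libraries by 0.44 (exact permutation p = 0.00233, adjusted p = 0.00874), as *Tie1* fell less than *Tek*. The MCC950 libraries differed from the saline libraries by -0.17 (exact permutation p = 0.0861, adjusted p = 0.129) and from the young libraries by 0.28 (exact permutation p = 0.011, adjusted p = 0.033). The latter call was lost in 7 of 24 alternatives, without young replicate 1, 2, 3 or 4 or MCC950 replicate 1, 4 or 5 (exact permutation tests, adjusted p up to 0.0777). The ratio of the 2 VEGF receptors, *Flt1* to *Kdr*, did not pass the test in any comparison, with differences of 0.21, -0.14 and 0.07 (adjusted p = 0.129, 0.301 and 0.507 by exact permutation tests).

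The ratio of *Vegfa* to its receptor *Kdr* was 0.20 to 0.87 (median 0.68) in the young, 0.65 to 1.76 (median 0.94) in the saline and 1.11 to 2.26 (median 1.40) in the MCC950 libraries. Every MCC950 library lay above every young library, by 0.91 on average (exact permutation p = 0.000333, the smallest possible here, adjusted p = 0.00167). The steps between saline and young, 0.43 (adjusted p = 0.115), and between MCC950 and saline, 0.48 (adjusted p = 0.0899), did not pass the exact permutation test after adjustment. The ratio of *Pgf* to *Vegfa*, both ligands of VEGFR1, was lower in the MCC950 than in the saline libraries by 0.81 (exact permutation p = 0.000311, adjusted p = 0.00167), with the 8 MCC950 libraries within -8.69 to -8.08 and the 7 saline libraries within -8.13 to -7.21. Against the young libraries, which ran from -9.52 to -6.94, neither middle-aged group passed the test (adjusted p = 0.416 for saline and 0.297 for MCC950, exact permutation tests).

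**Figure D4:**
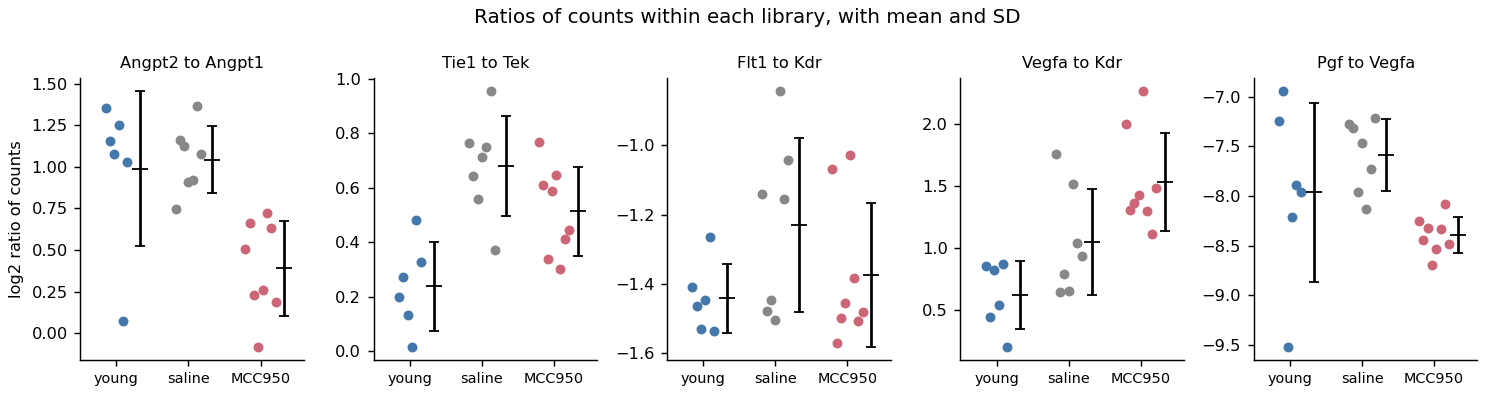
Log2 ratio of the counts of 2 genes within a library (y axis) in every library (points) of the 6 young, 7 saline and 8 MCC950 mice, with the group mean and SD (bars). The *Angpt2* to *Angpt1* ratio of all MCC950 libraries lies under that of all saline libraries, and the *Vegfa* to *Kdr* ratio of all MCC950 libraries lies over that of all young libraries.

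The members also varied together within groups. Over the 21 libraries, after subtraction of the group means, Pearson's r of log2 CPM between the receptors was between 0.67 (*Kdr* and *Tie1*) and 0.88 (*Flt1* and *Kdr*). The receptors followed the mean of the endothelial markers with r of 0.93 for *Tie1*, 0.88 for both *Flt1* and *Tek*, and 0.78 for *Kdr*. They also followed the podocyte markers, with r of 0.81 for *Kdr*, 0.74 for *Tek*, 0.68 for *Flt1* and 0.61 for *Tie1*, while *Vegfa* was nearer to the endothelial (r = 0.60) than to the podocyte markers (r = 0.46) and highest with *Tie1* among the members (r = 0.73). *Vegfb* ran against *Kdr* (r = -0.50) and with *Angpt1* (r = 0.53) and the proximal tubule markers (r = 0.54). For *Angpt1*, r was 0.0053 with the podocyte, 0.092 with the endothelial and 0.47 with the proximal tubule markers. It was 0.32 with the mesangial and smooth muscle markers and -0.46 with the macrophage markers. These coefficients are descriptions without a test, and the points share library, depth and the composition of the fraction.

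The genes whose deviations were most like those of each member, among 12246 genes of at least 1 log2 CPM on average, fell into similar groups. For *Flt1* they were *Cdh5* (r = 0.93), *Plpp3* (0.92) and *Dysf* (0.91), for *Kdr* *Cyyr1* (0.96), *Efnb2* (0.93) and *Ehd3* (0.93), and for *Tek* *Pecam1* (0.91), *Bmpr2* (0.91) and *Cdh5* (0.90). For *Tie1* they were *Slc9a3r2* (0.93), *Plxna2* (0.93) and *Lamb2* (0.91). Several of these are endothelial genes, and *Cdh5*, *Ehd3* and *Pecam1* belong to the endothelial markers. For *Vegfb* they were *Ndufb9* (0.93) and *Ndufb10* (0.92), which encode subunits of respiratory complex I, and *Mtch1* (0.90). For *Vegfa* they were *Wdr60*, *Fermt2* and *Cdc42ep1* (0.90 to 0.91), for *Angpt2* *Ubxn2b* (0.90), *Lmbrd2* (0.82) and *Plscr4* (0.82), and for *Angpt1* *Pfkm*, *Slc25a46* and *Cav1* (0.87 to 0.88). The nearest genes of *Vegfc*, with *Igf2* first, and of *Pgf*, with *Ecscr* first, reached only 0.74 and 0.71.

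Genes around the 10 were read from 5 lists, without a test of any list as a set. Of all genes tested, 12.2% were higher and 12.4% lower between saline and young. These shares were 11.9% and 4.86% between MCC950 and saline, and 21.8% and 16.5% between MCC950 and young. Of the other VEGF family and co-receptor genes, *Nrp1*, the co-receptor that presents VEGF-A to VEGFR2, was lower in the saline than in the young libraries, at 96.98 ± 21.4 CPM (SD, n = 7) against 191 ± 36.9 CPM (SD, n = 6), which is -0.98 on the log2 scale (adjusted p = 0.000404). *Flt4*, which encodes VEGFR3, was lower at -0.75 (adjusted p = 0.00171). *Nrp2* (0.11, adjusted p = 0.776) and *Vegfd* (-0.10, adjusted p = 0.658) did not pass, and none of the 4 passed between MCC950 and saline. Between MCC950 and young libraries *Nrp1* (-0.96, adjusted p = 0.000193) and *Flt4* (-1.06, adjusted p = 3.28e-05) were lower.

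Of 9 other genes of the angiopoietin and Tie system, 1 was higher and 4 were lower in the saline than in the young libraries. *Ptprb*, the phosphatase VE-PTP that acts on TIE2, fell by 1.09 on the log2 scale (adjusted p = 6.4e-05), and *Svep1*, an extracellular ligand of TIE1, fell by 1.58 (adjusted p = 0.00165). *Dok2*, an adaptor of TIE2 that is also expressed in leukocytes, was higher at 1.81 (adjusted p = 0.000407). Macrophage markers moved in the same direction as *Dok2*, with 4 of 10 higher and a summed level of 398 to 1908 CPM in the young and 1449 to 3497 CPM in the saline libraries, and their part in its change was not tested. None of the 9 passed between MCC950 and saline, and in the MCC950 libraries *Ptprb* (-1.36, adjusted p = 2.63e-06) and *Svep1* (-1.15, adjusted p = 0.00702) were below and *Dok2* (1.87, adjusted p = 0.000144) above the young level.

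Of 32 genes of VEGF receptor signaling, 4 were higher and 7 were lower in the saline than in the young libraries, a median log2 fold change of 0.00552. These are 12.5% and 21.9%, beside 12.2% and 12.4% of all genes. *Prkca*, a protein kinase C downstream of VEGFR2, was lower at -0.76 (adjusted p = 8.05e-05), *Hspb1*, which regulates actin in migrating endothelium, at -1.12 (adjusted p = 0.00233), and *Mapkapk2*, the kinase that acts on its product, was higher at 0.48 (adjusted p = 0.00595). Between MCC950 and saline, 4 were higher (12.5%, beside 11.9% of all genes) and none was lower. Among them were *Map2k2* at 0.36 (adjusted p = 0.00267), *Shb* at 0.40 (adjusted p = 0.00725) and *Hras* at 0.36 (adjusted p = 0.0148). The endothelial nitric oxide synthase gene *Nos3* was at -1.22 (adjusted p = 0.000122) between MCC950 and young, where 4 of the 32 were higher and 6 lower.

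Hypoxia-inducible factors activate *Vegfa*, *Flt1* and *Angpt2*, among others. Of 9 regulators of this pathway, *Hif1a* (-0.60, adjusted p = 7.98e-05) and *Epas1*, the endothelial HIF-2α gene (-0.97, adjusted p = 6.96e-05), were lower in the saline than in the young libraries and none was higher. Between MCC950 and saline *Hif1a* was lower (-0.26, adjusted p = 0.0374) and the prolyl hydroxylase gene *Egln2* higher (0.25, adjusted p = 0.00755). Of 16 HIF target genes outside the 10 members, 1 was higher and 3 were lower with age (6.25% and 18.8%, beside 12.2% and 12.4% of all genes). Among the lower was the vasodilator peptide gene *Adm* at -1.18 (adjusted p = 6.62e-05). Between MCC950 and saline 5 were higher and none was lower: *Ndrg1* rose from 373 ± 108.1 CPM (SD, n = 7) to 871 ± 204 CPM (SD, n = 8), which is 1.22 on the log2 scale (adjusted p = 0.000555), and the glycolysis genes *Ldha* (0.52, adjusted p = 0.00358) and *Pgk1* (0.44, adjusted p = 0.0109) were higher. *Vegfa* was thus higher alongside 5 of 16 other targets, which include glycolytic enzymes, while proximal tubule markers were higher in the same libraries, and the part of these in either was not tested. Between MCC950 and young 5 targets were higher and 3 lower, with *Mxi1* (0.41, adjusted p = 0.000836), *Ldha* (0.50, adjusted p = 0.00121) and *Adm* (-1.25, adjusted p = 1.31e-05) at the smallest adjusted p.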

How the data were processed

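The authors trimmed the reads of TruSeq RNA libraries with Trim Galore, aligned them to mm10 (GRCm38) with Bowtie2, which does not splice, and assigned them to genes with featureCounts. The deposited tables hold raw counts for 27179 genes per library, listed by Entrez Gene number, of which RefSeq named 25275 and GENCODE 18. Strand setting, annotation release and tool versions are not given in the sources used here. A DESeq2-normalized table of the same counts, without saline replicate 6, was not used.

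Counts were fitted in edgeR 4.0.16 (R 4.3.3; TMM, filterByExpr by group, quasi-likelihood F test, all 3 groups in 1 fit of 21 libraries), and adjusted over 16377 genes by Benjamini-Hochberg at 0.05. The fit was tested on simulated data. Log2 CPM and the log2 ratios used a prior count of 2. Within-library ratios and levels relative to marker means were compared by exact permutation in Python 3.11.15. DESeq2 1.42.0, other filters, scalings, marker covariates, a replicate block and leaving out each library were alternatives. Leaving out both libraries that stood apart was chosen after seeing the data.

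All 6 libraries labelled young entered. The p-values treat each library as a separate mouse. The 10 genes, the 5 pathway lists and the 10 marker lists were chosen with earlier results of these data known. Genes named are the 10 members, up to 3 genes with the smallest adjusted p under 0.05 per pathway list and comparison, 5 endothelial and 5 podocyte markers whatever their result, and the 3 genes most like each member. *Nrp2*, *Vegfd*, *Gm17473*, *Cd3d* and *Cd3g* fall outside that rule and were named after their values were seen.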

Additional observations from a re-analysis of the deposited data

Results flagged for a closer look

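Of 63 groups of single-gene levels, ratios and relative levels examined for a library far from the others, 3 were flagged, and chance alone flags about 1 in 20 groups. The level of *Flt1* in MCC950 replicate 3 was 4.94 log2 CPM, where the next highest MCC950 library was at 4.40. The level of *Tek* in the same library was 4.30 log2 CPM, where the next was at 3.77. MCC950 replicate 3 was also the highest MCC950 library for *Vegfa*, *Pgf*, *Kdr* and *Tie1* and the lowest for *Vegfc*. The log2 ratio of *Angpt2* to *Angpt1* in young replicate 5 was 0.070, where the next lowest young library was at 1.03. Young replicate 5 was the lowest young library for 7 of the 10 genes, *Vegfa*, *Vegfc*, *Angpt2* and the 4 receptors, and the highest for *Vegfb* and *Angpt1*. With both libraries left out, the numbers of called members were 7, 4 and 10 in the 3 comparisons, as with all libraries, but the adjusted p of *Vegfa* between MCC950 and saline was 0.052 and that of *Tek* was 0.0201.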

How the results depend on the processing

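The number of called members between saline and young, 7, was 0 with the podocyte or the endothelial score as a covariate, 6 to 7 when 1 library was left out, and 7 in the other alternatives. Between MCC950 and saline, where 4 were called, it was 1 with the endothelial or the proximal tubule score and 2 to 5 when 1 library was left out, the 2 without saline replicate 3. Between MCC950 and young, where 10 were called, it was 1 with the podocyte score, 0 with the endothelial score and 9 to 10 when 1 library was left out. These scores differ between the groups themselves. Calls over all 16377 genes fell with them, to 6 (podocyte) and 9 (endothelial) between saline and young and to 123 and 0 between MCC950 and young, so the losses were not particular to the members. Log2 fold changes of *Angpt1* were -0.57 and -0.51 between saline and young and -0.70 and -0.61 between MCC950 and young with these scores, against -0.57 and -0.70 without a score. Those of most other called members shrank. Between saline and young, *Flt1* was at -0.20 and -0.18 against -1.05, and *Tek* at -0.25 and -0.25 against -1.25. Between MCC950 and young, *Flt1* was at -0.61 and 0.0073 against -1.23, and *Tek* at -0.81 and -0.15 against -1.53. Reversed log2 fold changes between saline and young were -0.28 (podocyte score) and -0.056 (endothelial score) for *Vegfb*, 0.13 for *Kdr* (podocyte score), and with the endothelial score 0.33 for *Vegfc*, 0.095 for *Pgf* and 0.089 for *Tie1*. Between MCC950 and saline they were 0.19 (endothelial) and 0.0057 (proximal tubule) for *Flt1*, 0.42 and 0.35 for *Kdr*, and 0.11 (endothelial) for *Tek*. Between MCC950 and young they were 0.043 (podocyte) and 0.43 (endothelial) for *Vegfa*, and with the endothelial score 0.060 for *Vegfc*, 0.0073 for *Flt1* and 0.24 for *Kdr*. None of the reversed values passed the test. Leaving out 1 library moved values near 0 across it: *Kdr* between MCC950 and saline (-0.16 to 0.050), the *Angpt2* to *Angpt1* ratio between saline and young (-0.13 to 0.13), *Tek* (-0.039 to 0.043) and *Vegfa* (-0.069 to 0.11) relative to markers between MCC950 and saline, and *Tie1* relative to markers between saline and young (-0.060 to 0.0029). *Vegfa* relative to podocyte markers was also -0.0026 with a prior count of 0.5 and -0.017 without the most abundant marker. With both libraries that stood apart left out, that value was -0.035, *Tek* relative to endothelial markers was -0.039 and the *Angpt2* to *Angpt1* ratio was -0.13 (saline against young).

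Replicate numbers are shared between groups. Deviations of same-numbered libraries correlated with r from -0.061 to 0.35, -0.14 to 0.33 and -0.013 to 0.40 in the 3 comparisons. Replicate 1 was at 0.35, 0.29 and 0.40. The labels name no pairs, and each title carries a different number in brackets. Differently numbered libraries were not compared, so whether the replicate numbers mark pairs was not tested. With replicate number as a block, 7, 3 and 9 members were called, *Vegfa* (0.43, adjusted p = 0.0724) between MCC950 and saline and *Pgf* (-0.85, adjusted p = 0.125) between MCC950 and young being lost. DESeq2 called 7, 5 and 10. Depth limits *Pgf* and *Vegfc*, with as few as 8 and 37 reads in a library.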

Other observations

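Markers of other cell types differed less evenly. Their counts stand beside the shares of all genes given above for each comparison. Of 8 collecting duct markers, 5 were lower in the saline than in the young libraries and 8 in the MCC950 than in the young libraries, and none passed between MCC950 and saline. Of 8 markers of the loop of Henle and distal tubule, 2 were lower with age, 2 were lower between MCC950 and saline, and 1 was higher and 2 were lower between MCC950 and young. Of 10 mesangial and smooth muscle markers, 9 were lower between MCC950 and young, and none passed between MCC950 and saline. Of 10 macrophage markers, none passed between MCC950 and saline, and 2 were higher between MCC950 and young.

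Of 7 T cell markers 3, and of 7 B and plasma cell markers 4, were higher in the saline than in the young libraries. The B and plasma cell markers summed to 44.1 to 179.8 CPM in the young, 406 to 583 CPM in the saline and 116.98 to 654 CPM in the MCC950 libraries, where 1 was lower than in the saline and 2 were higher than in the young libraries. The T cell markers summed to 5.10 to 14.5 CPM, 14.3 to 23.8 CPM and 6.59 to 71.9 CPM, with *Cd3d* and *Cd3g* at 0 in at least 1 young library. None of the 4 red cell markers tested passed in any comparison, with sums of 35.6 to 262 CPM over all libraries.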
